A study of Mus musculus with 5 samples.

Results

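The cyclin-dependent kinase inhibitors are 7 genes of 2 families, Cdkn1a, Cdkn1b and Cdkn1c of the Cip/Kip family and Cdkn2a, Cdkn2b, Cdkn2c and Cdkn2d of the Ink4 family. They were taken as every probe whose gene name on the array is CDKN1A, CDKN1B, CDKN1C, CDKN2A, CDKN2B, CDKN2C or CDKN2D, which gave 13 of 45281 probes. The arrays compared uteri of 15-day-old mice, whose strain is a C57BL/6J;129S5/Brd mixed hybrid. The 3 control samples (pools 7, 9 and 11) are wild type per the labels, and the 2 Dicer cKO samples (pools 10 and 12) come from a knockout of Dicer, the enzyme that makes mature microRNAs, by Cre expressed from the progesterone receptor locus. Each sample is RNA from a pool of whole uteri on 1 array, and this Cre is limited to cells in which the progesterone receptor gene is active. How many uteri made up a pool, and whether controls carried Cre or floxed alleles, the sources used here do not say. Nothing in the labels says how the pools were kept apart, and p-values here cover no more than the spread among them, which may be technical.

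Cip/Kip proteins (p21 from Cdkn1a, p27 from Cdkn1b and p57 from Cdkn1c) bind complexes of cyclins with many cyclin-dependent kinases, and so brake the entry into and passage through DNA replication. Ink4 proteins (p16 from Cdkn2a, p15 from Cdkn2b, p18 from Cdkn2c and p19 from Cdkn2d) bind the kinases Cdk4 and Cdk6 and keep them from the D cyclins. Cdkn1a is a well known target of the transcription factor p53, p27 is controlled to a large part by ubiquitin-dependent breakdown, Cdkn1c is imprinted, and Cdkn2a also makes the unrelated protein Arf from another start site. In the uterus these proteins are known as brakes on the steroid-driven division of epithelial and stromal cells.

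MicroRNAs are the products that Dicer makes, and members of 2 seed families are known in the literature as regulators of Cip/Kip messages: the miR-17 family of Cdkn1a, and miR-221 and miR-222 of Cdkn1b and Cdkn1c. They are shown because the deleted enzyme acts on them. Their own levels were not measured on these arrays. The mature sequences below are from RefSeq (GRCm38.p6), with the seed, bases 2 to 8, in capitals. The 6 microRNAs of the miR-17 family share the seed AAAGUGC, and the other 2 share GCUACAU.
mmu-miR-17-5p: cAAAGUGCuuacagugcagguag
mmu-miR-20a-5p: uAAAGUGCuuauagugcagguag
mmu-miR-20b-5p: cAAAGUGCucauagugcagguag
mmu-miR-93-5p: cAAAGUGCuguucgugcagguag
mmu-miR-106a-5p: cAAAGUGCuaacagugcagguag
mmu-miR-106b-5p: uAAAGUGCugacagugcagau
mmu-miR-221-3p: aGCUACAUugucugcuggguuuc
mmu-miR-222-3p: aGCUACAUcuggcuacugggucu

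The promoter windows of the genes whose signals rose are shown next. Each runs from 250 bases before to 50 bases after a RefSeq start (GRCm38.p6) and is written in the direction of transcription. Cdkn1a has 2 annotated starts, 2790 bases apart, at chr17:29090729-29091028 and chr17:29093519-29093818, both on the plus strand. Cdkn2b has 1, at chr4:89310983-89311282 on the minus strand. Capitals mark the p53 core, searched as CATG, any 6 bases and CATG, which reads the same on both strands, and the GC box GGGCGG on either strand.
Cdkn1a first start: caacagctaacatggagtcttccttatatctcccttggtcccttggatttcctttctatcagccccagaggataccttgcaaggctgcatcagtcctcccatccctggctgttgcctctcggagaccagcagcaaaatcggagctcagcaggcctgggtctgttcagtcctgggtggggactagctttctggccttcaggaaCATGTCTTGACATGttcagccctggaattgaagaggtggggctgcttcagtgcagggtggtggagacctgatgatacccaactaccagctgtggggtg
Cdkn1a second start: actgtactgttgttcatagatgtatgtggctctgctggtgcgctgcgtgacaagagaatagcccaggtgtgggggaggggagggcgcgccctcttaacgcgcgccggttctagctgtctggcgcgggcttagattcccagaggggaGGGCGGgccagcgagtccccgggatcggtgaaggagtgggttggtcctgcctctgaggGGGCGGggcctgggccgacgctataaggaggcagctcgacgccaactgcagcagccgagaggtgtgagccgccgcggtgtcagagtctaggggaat
Cdkn2b: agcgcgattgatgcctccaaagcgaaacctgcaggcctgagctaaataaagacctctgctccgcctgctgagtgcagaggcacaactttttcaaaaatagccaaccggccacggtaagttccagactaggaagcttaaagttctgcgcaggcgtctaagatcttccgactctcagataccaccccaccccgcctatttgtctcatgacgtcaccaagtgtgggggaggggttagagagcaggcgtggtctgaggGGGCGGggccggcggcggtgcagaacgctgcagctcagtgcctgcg

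All 5 motifs were searched on both strands. The window of the first Cdkn1a start held the p53 core as CATGTCTTGACATG, from base -48 to base -35 relative to the start. Of 32851 windows in the RefSeq table, 234 (0.712%) held these letters, and the other 8 windows of the inhibitor genes did not. GC boxes were common, in 35.7% of all windows. The window of the second Cdkn1a start held 2 and that of Cdkn2b held 1. Those of Cdkn1b and Cdkn2d held 1 and 5, those of Cdkn2a 3 and 1, and that of the first Cdkn2c start 4. The first Cdkn1a start and the second Cdkn2c start had none. The E-box CACGTG (7.15% of all windows) was found at the second start of Cdkn2c, the E2F core TTTNNCGC (5.17%) at both starts of Cdkn2a, and the Smad palindrome GTCTAGAC (0.213%) in none of the 9 windows. No motif overlapped another in the printed windows. Cdkn1c is named only. A match is a description of the letters.

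On each array 47.0% to 49.5% of the probes passed detection (detection p under 0.05), and array medians ran from 57.5 to 63.0 intensity units. The number of arrays limits the precision. Dicer1 was lower by 0.43 ± 0.09 log2 units (SE; limma adjusted p = 0.0233) in Dicer cKO pools on its brighter probe, and by 0.22 ± 0.13 on its dimmer one, which was not called. Of 22845 probes detected on at least 2 arrays, 1340 (5.87%) had a Benjamini-Hochberg adjusted p under 0.05 in limma and are called, 536 (2.35%) of them higher and 804 (3.52%) lower in Dicer cKO uteri. Leaving out Dicer cKO pool 10 lowered the count to 356, and leaving out control pool 7 or 9 lowered it to 791 or 833. Markers of the labelled tissue were present, with 8 of 8 stromal and 8 of 8 smooth muscle markers detected.

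Cdkn1a was higher in Dicer cKO uteri on every one of its 3 probes, and Cdkn2b was higher on its only probe. None of the probes of Cdkn1b, Cdkn1c, Cdkn2a, Cdkn2c and Cdkn2d was called. Of the 13 probes, 10 passed the detection filter and were tested, at least 1 for each of the 7 genes, and the other 3 were detected on no array. Of the 10 tested, 4 were called higher, where 5.87% of all probes were called, and 0 were called lower by limma. Of these 4, Cdkn1a probe 2070377, was detected on 1 of 3 control arrays and entered the test through the group where it is high. With detection required on all arrays, 3 were called. At an unadjusted p under 0.05 the counts were 6 and 0, where 9.78% of all probes were higher and 9.84% lower at that level. Of the 4 called probes 3 report the same gene, so the calls concern 2 of the 7 genes. The groups of arrays did not overlap for 7 of the 10 probes, 6 higher and 1 lower, where the same held for 36.7% of all probes tested (19.6% higher and 17.1% lower). The median difference of the 10 probes was 0.38 log2 units, beside 0.01 over all probes tested.

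**Figure D1:**
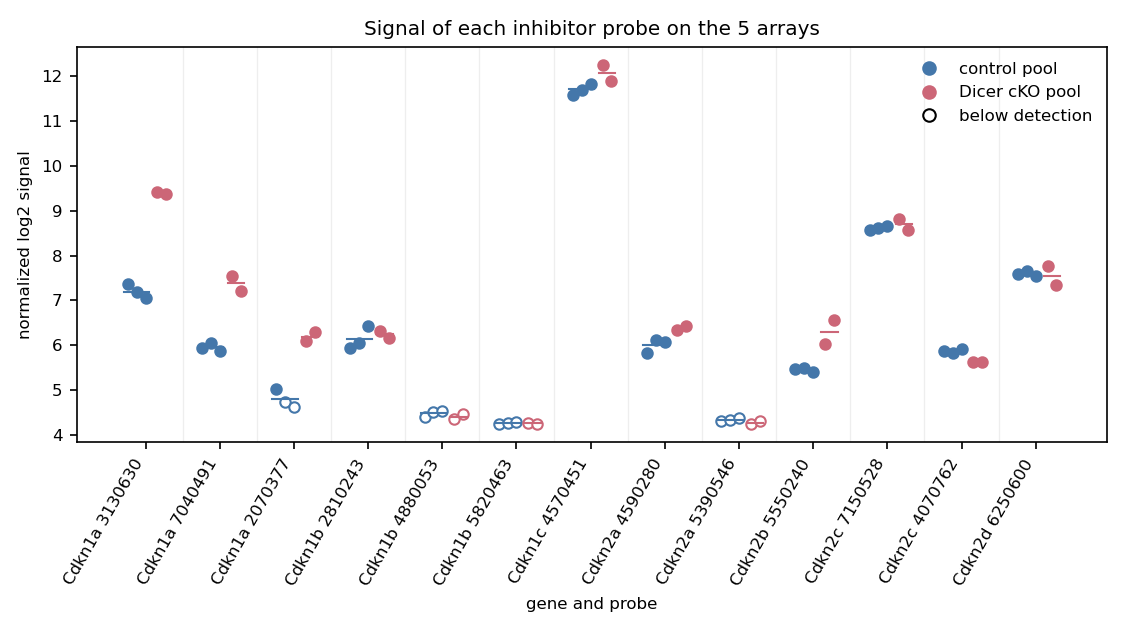
Normalized log2 signal (vertical axis) of the 13 inhibitor probes (horizontal axis) on each array, with control pools 7, 9 and 11 in blue, Dicer cKO pools 10 and 12 in red, open points for arrays below detection and a line at each group mean. The pools of the groups lie farthest apart for the Cdkn1a probe 3130630, with group means of 7.20 and 9.39, and 3 probes are below detection on all arrays.

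Cdkn1a encodes p21, the inhibitor that p53 and other stress and differentiation signals induce. Its brightest probe, 3130630, had deposited intensities of 216.4, 181.6 and 151.5 in control pools 7, 9 and 11 and of 665.6 and 705.8 in Dicer cKO pools 10 and 12. The standard error of these means over the beads of a probe was at most 4.77%, which covers the reading of an array and not the spread between pools. After normalization the log2 signals were 7.37, 7.18 and 7.05 in the control pools and 9.42 and 9.37 in the Dicer cKO pools. Both Dicer cKO pools lay above all control pools, and they differed from each other less than the control pools did. The difference was 2.20 ± 0.12 log2 units (SE; limma adjusted p = 8.1e-06), a 4.58-fold difference with a 95% interval from 3.82 to 5.51. It ranked 14th among the 22845 probes by size of increase.

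The other probes of Cdkn1a showed smaller differences in the same direction. Probe 7040491 read 5.95, 6.05 and 5.88 log2 units in pools 7, 9 and 11 of the controls and 7.55 and 7.22 in pools 10 and 12 of the Dicer cKO, a difference of 1.43 ± 0.14 (limma adjusted p = 0.000320) or 2.69-fold. Probe 2070377 read 5.03, 4.73 and 4.63 in the control pools, where it was detected on 1 of 3 arrays, and 6.09 and 6.29 in the Dicer cKO pools. Its difference was 1.40 ± 0.16 (limma adjusted p = 0.000697), and it passed the detection filter with its Dicer cKO signals alone. The groups did not overlap for either probe. Within arrays, the brightest probe rose by 0.77 ± 0.16 more than probe 7040491 (limma adjusted p = 0.0201). The size of a difference between dim signals depends on the background correction. With a larger offset of 50 the brightest probe differed by 1.97 and the dimmest by 0.79, and without background correction by 1.99 and 0.87, and all 4 values were called.

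Cdkn1b, encoding p27, was not called. Its probe 2810243 read 5.95, 6.06 and 6.44 log2 units in pools 7, 9 and 11 of the controls and 6.32 and 6.17 in pools 10 and 12 of the Dicer cKO. The Dicer cKO pools lay inside the range of the control pools. The difference was 0.10 ± 0.17, with a 95% interval from -0.27 to 0.47 (limma adjusted p = 0.807), and its sign turned without control pool 7 (-0.0011). The other 2 probes of Cdkn1b, 4880053 and 5820463, were below detection on every array, with intensities between 33.3 and 49.1.

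Cdkn1c, encoding p57, had deposited intensities of 3468.5, 3351.2 and 3410.8 in control pools 7, 9 and 11 and of 4723.5 and 3884.0 in Dicer cKO pools 10 and 12. In log2 units these became 11.59, 11.70 and 11.83 against 12.25 and 11.88. The groups did not overlap, but Dicer cKO pool 12 lay just above control pool 11. The difference of 0.36 ± 0.11 was not called (limma adjusted p = 0.0986), and its 95% interval ran from 0.11 to 0.61. Without Dicer cKO pool 12 it was 0.54 and called (limma adjusted p = 0.0258), and without Dicer cKO pool 10 it was 0.17 and not called. The size for Cdkn1c thus depended on Dicer cKO pool 10.

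Among the Ink4 genes Cdkn2b, encoding p15, was called. Its probe 5550240 read 5.47, 5.50 and 5.40 log2 units in pools 7, 9 and 11 of the controls and 6.03 and 6.57 in pools 10 and 12 of the Dicer cKO, from intensities of 79.9, 78.2 and 69.4 against 90.2 and 127.4. The control pools lay close together, and the Dicer cKO pools lay above them but apart from each other. The difference was 0.84 ± 0.17 (limma adjusted p = 0.0168), or 1.79-fold with a 95% interval from 1.38 to 2.32. The call was lost without Dicer cKO pool 12, where the difference was 0.57 (limma adjusted p = 0.0940), and without control pool 7, where it was 0.84 (limma adjusted p = 0.0522). Being dim, the probe differed by 0.54 with an offset of 50 and by 0.55 without background correction, and was called in both.

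Cdkn2a, which lies close to Cdkn2b in the genome and encodes p16 and Arf, was not called. Its probe 4590280 read 5.82, 6.11 and 6.06 log2 units in pools 7, 9 and 11 of the controls and 6.35 and 6.43 in pools 10 and 12 of the Dicer cKO. The groups did not overlap, and the difference was 0.39 ± 0.14 (95% interval from 0.08 to 0.71; limma adjusted p = 0.153). A second probe, 5390546, was below detection on every array, at intensities from 31.7 to 41.5. The sources used here do not say which product of Cdkn2a each probe reads.

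The remaining Ink4 genes differed little. Cdkn2c, encoding p18, read 8.57, 8.62 and 8.67 log2 units in pools 7, 9 and 11 of the controls and 8.81 and 8.58 in pools 10 and 12 of the Dicer cKO on its brighter probe 7150528, a difference of 0.07 ± 0.11 (95% interval from -0.16 to 0.31). Its dimmer probe 4070762 was lower in both Dicer cKO pools, at 5.62 and 5.64, than in the control pools, at 5.88, 5.84 and 5.91, without being called (-0.25 ± 0.13; limma adjusted p = 0.336). So the probes of Cdkn2c pointed in different directions, neither past the threshold. Cdkn2d, encoding p19, read 7.59, 7.67 and 7.54 in the control pools and 7.77 and 7.34 in the Dicer cKO pools. Its Dicer cKO pools lay on either side of the control pools, and its difference was -0.04 ± 0.14 (95% interval from -0.35 to 0.27).

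**Figure D2:**
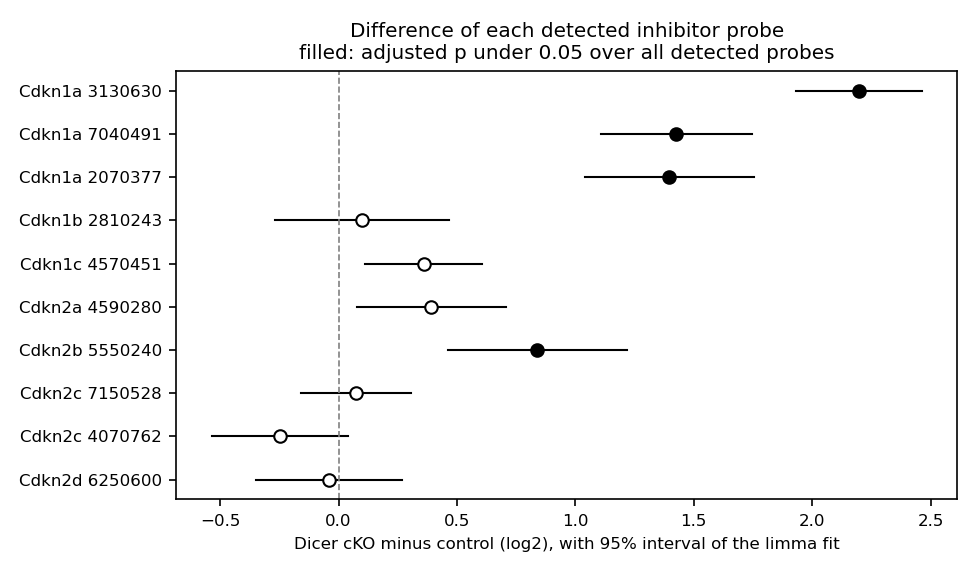
Difference between Dicer cKO and control pools in log2 units (horizontal axis) for the 10 detected inhibitor probes (vertical axis), with the 95% interval of the limma fit and filled points for an adjusted p under 0.05. The 3 Cdkn1a probes lie at 1.40 to 2.20, Cdkn2b at 0.84, and the other 6 probes between -0.25 and 0.39.

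Cdkn1a was then set against each relative within each array, which removes any shift of a whole array. The log2 ratio of the brightest Cdkn1a probe to the brightest probe of a relative was higher in the Dicer cKO pools for each of the 6 relatives, with differences from 1.36 ± 0.20 against Cdkn2b to 2.24 ± 0.16 against Cdkn2d. All 6 were called by limma in a fit of these ratios together with all tested probes, with adjusted p from 2.1e-05 to 0.0026. This fit sets the expected spread by mean signal, and the ratios have means below those of the probes. Without that intensity trend all 6 were called, with larger limma adjusted p, from 0.00072 (Cdkn2d) to 0.010 (Cdkn2b). Against its Cip/Kip relatives Cdkn1a rose more by 2.10 ± 0.22 (Cdkn1b; limma adjusted p = 0.000373) and by 1.84 ± 0.15 (Cdkn1c; limma adjusted p = 6.4e-05). Against the Ink4 genes Cdkn2a and Cdkn2c the differences were 1.80 ± 0.19 and 2.12 ± 0.14. The 6 ratios share the Cdkn1a probe and its error. In a fit of the ratios of Cdkn1a to every other tested probe, 99.9% of 22844 were called, and 99.9% with Cdkn1a higher, so a called ratio is not particular to the relatives. Against Cdkn2b, without Dicer cKO pool 10, the difference was 1.05 and not called (limma adjusted p = 0.0734).

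Cdkn1a minus the mean of its 6 relatives stood at -0.13, -0.43 and -0.61 log2 units in pools 7, 9 and 11 of the controls and at 1.49 and 1.55 in pools 10 and 12 of the Dicer cKO. The difference of these means was 1.91, against a spread (SD) of 0.24 among the control pools. The relatives as a mean differed by 0.29. In the exact permutation test over the 10 splits of the 5 arrays the 2-sided p was 0.1, which is the smallest this design allows.

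**Figure D3:**
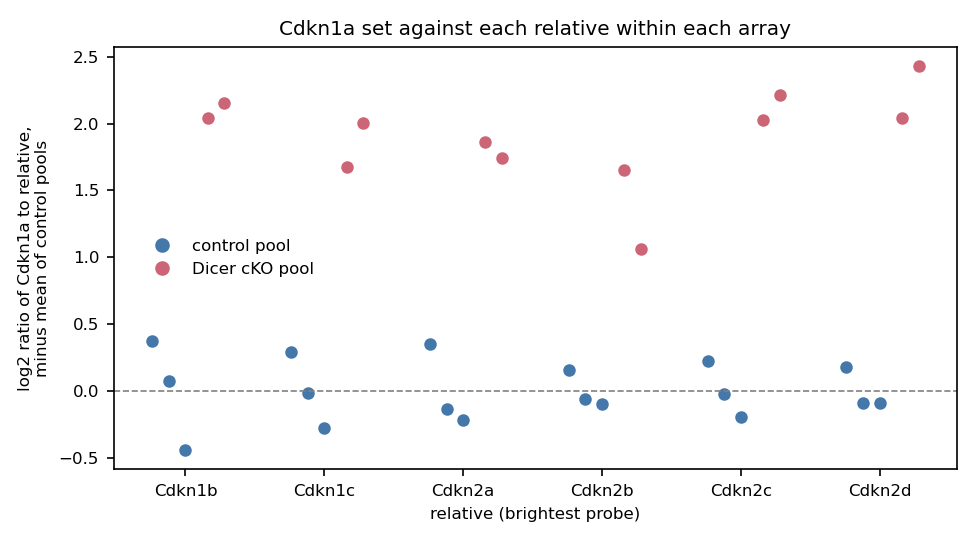
Log2 ratio of Cdkn1a to each of its 6 relatives (horizontal axis) within each array, minus the mean of the control pools (vertical axis), with control pools in blue and Dicer cKO pools in red. For every relative both Dicer cKO pools lie above all 3 control pools, with the smallest difference, 1.36, against Cdkn2b.

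Of the 5 probes whose pattern over the 5 arrays lay nearest to that of Cdkn1a, 3 read genes known from cornifying epithelium. Nearness was the root mean square distance between mean-centred log2 signals, over 18730 probes of other named genes. These 3 were Lce3b, a late cornified envelope gene, Ivl, which encodes the envelope protein involucrin, and Crct1, a gene of the same epidermal cluster. The others were Elmod1, detected on 1 of 3 control arrays, and the RNA-binding protein gene Igf2bp3, detected on all arrays, at a distance of 0.22 log2 units. All 5 were chosen for their pattern on these arrays, so their likeness to Cdkn1a is a description. Lce3b, Ivl and Crct1 were detected on no control array and passed the filter through the Dicer cKO arrays alone. Their control values lie at the floor, so their distances have no order. On both Dicer cKO arrays these 3 genes were detected and at least 3.70-fold, 2.65-fold and 2.45-fold higher, against the lowest detected signal of each control array. Of 6 stratified epithelium markers that passed the filter, 2 were called higher, Krt17 (2.60 ± 0.12) and Ivl, which passed through the Dicer cKO arrays alone, and 1 lower, Lor, at a mean of 7.81 in control and 6.81 in Dicer cKO pools, while Krt5 and Trp63, which define basal cells, stood at 0.12 ± 0.20 and -0.39 ± 0.15 and were not called. Krt14 and Krt6a did not pass the detection filter. Over the array 2.68% of genes were called higher and 3.88% lower. At an unadjusted limma p under 0.05 the list had 2 higher and 2 lower, where 10.3% of all genes were higher and 10.4% lower. With detection required on all arrays, or without Dicer cKO pool 10 or 12, 1 marker of this list was called higher. The summed linear signal of these 6 markers lay between 563.8 and 641.9 in control pools and between 1076 and 1147 in Dicer cKO pools. Krt17 made up this gain: without it the sum of the other 5 was lower in Dicer cKO pools, at 379.5 to 433.6 against 458.4 to 512.0. The part of these cells in the rise of Cdkn1a was not tested. In RNA from whole uteri, fewer cells of a type and less RNA per cell cannot be told apart.

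Nearest to Cdkn2b were Tnni2 (0.07), a troponin gene, and 4 genes known from macrophages, Trem2 (0.10), Mpeg1 (0.10), Cd68 (0.11) and Ms4a7 (0.11). They were chosen for their pattern on these arrays, so their likeness to Cdkn2b is a description. Trem2, a lipid receptor, read 5.98, 5.95 and 5.97 log2 units in pools 7, 9 and 11 of the controls and 6.77 and 7.08 in pools 10 and 12 of the Dicer cKO. Of 8 myeloid markers, 2 were called higher, Lyz2 (0.83 ± 0.13) and Cd68 (0.81 ± 0.13), and 1 lower, Cd14 (-1.81 ± 0.17), while the receptor genes Csf1r and Adgre1 stood at 0.11 ± 0.14 and 0.36 ± 0.15. Over the array 2.68% of genes were called higher and 3.88% lower. At an unadjusted limma p under 0.05 the list had 3 higher and 1 lower, where 10.3% of all genes were higher and 10.4% lower. The summed linear signal of the 8 markers lay between 2484 and 2914 in control pools and between 2267 and 2823 in Dicer cKO pools. The groups thus overlapped. The part of macrophages in the rise of Cdkn2b was not tested.

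**Figure D4:**
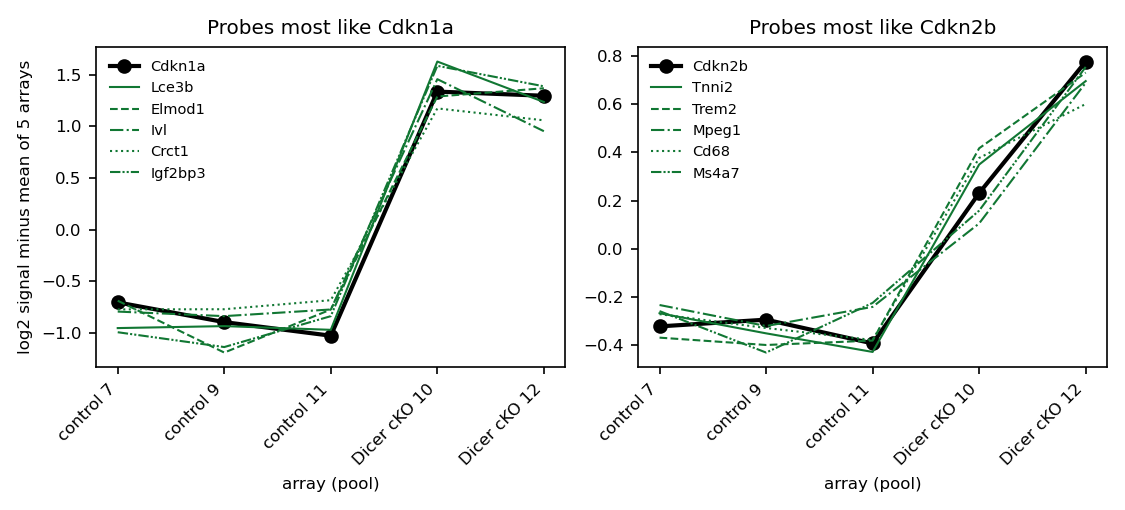
Log2 signal minus its mean over the 5 arrays (vertical axis) on each array (horizontal axis) for Cdkn1a (left, black) and Cdkn2b (right, black) and the 5 probes nearest to each (green lines). The Dicer cKO pools are alike for Cdkn1a, at 9.42 and 9.37 before centring, and differ for Cdkn2b, at 6.03 and 6.57. The control values of Lce3b, Ivl and Crct1 are below detection.

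The genes that act with or on the inhibitors were read from lists, each gene by its brightest probe, beside 6.57% of 15733 genes called over the array, 2.68% higher and 3.88% lower, with a median difference of 0.01. At an unadjusted p under 0.05, 10.3% of all genes were higher and 10.4% lower, beside which the unadjusted counts of each list are to be read. The kinases and cyclins that the inhibitors bind included 4 called higher of 10 detected and 0 lower (limma; 7 and 0 at an unadjusted p under 0.05), with a median of 0.34. These were Ccne1, the cyclin that activates Cdk2 at the start of replication (1.16 ± 0.18), its relative Ccne2 (0.65 ± 0.15), Ccnd1, 1 of the D cyclins that Ink4 proteins compete with (0.54 ± 0.09), and the mitotic kinase gene Cdk1 (0.48 ± 0.12, limma adjusted p = 0.0498). The other D cyclin genes, Ccnd2 and Ccnd3, stood at -0.16 ± 0.08 and 0.24 ± 0.08 and were not called. Cdk4 and Cdk6, the kinases that Ink4 proteins bind, stood at 0.25 ± 0.10 and 0.23 ± 0.17 and were not called. Without control pool 7 or control pool 9 the list had 2 called higher, and without Dicer cKO pool 10 it had 1.

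By group mean, replication and mitosis genes were higher in Dicer cKO pools for 23 of 23 detected, where the median difference over all genes was 0.01. For Plk1, Bub1b, Aurkb, Mki67, Cdt1, Foxm1, Birc5, Rrm2, Cenpa, Cdc20 and Mcm6, Dicer cKO pool 12 did not lie above every control pool. Rrm2 read 7.03 there and 7.18 in control pool 11. Bub1b read 10.37 there and 10.45 in control pool 11, and Mki67 read 9.74 and 9.76. Of the 23 genes, 4 were called higher and 0 lower (limma; 19 and 0 at an unadjusted p under 0.05), with a median of 0.42. The called genes were the replication helicase genes Mcm5 (0.69 ± 0.16) and Mcm3 (0.61 ± 0.15), the mitotic kinase gene Aurka (0.67 ± 0.13) and the topoisomerase gene Top2a (0.53 ± 0.14). Leaving out control pool 7 or Dicer cKO pool 10 took this count to 0. It was 2 with detection required on all arrays, 2 when control pool 9 was left out, 8 for control pool 11 and 11 for Dicer cKO pool 12. Of 10 pocket proteins and E2F factors, through which the kinases act on transcription, 0 were called by limma (5 higher and 0 lower at an unadjusted p under 0.05). E2f3 stood at 0.53 ± 0.15 and E2f1 at 0.44 ± 0.15, and the list median was 0.19. Without Dicer cKO pool 12, 2 of that list were called higher.

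Of 11 ubiquitin ligase parts that break down Cip/Kip proteins, 1 was called higher and 0 lower (limma; 1 and 0 at an unadjusted p under 0.05). It was Skp2, the subunit that recognises p27, at 8.46, 8.39 and 8.41 log2 units in pools 7, 9 and 11 of the controls and 9.42 and 9.08 in pools 10 and 12 of the Dicer cKO (0.83 ± 0.11; limma adjusted p = 0.0019). Its groups did not overlap, and 1 member of this list was called higher with any 1 pool left out. Its partner Cks1b stood at -0.07 ± 0.15, and the list median was 0.04. The arrays measure RNA, so the protein level of p27 was not measured. Among 13 Polycomb genes, whose products silence the Ink4 genes, Cbx2 was called higher (0.82 ± 0.11) and 0 were lower (limma; 3 and 0 at an unadjusted p under 0.05). Bmi1 and Ezh2, the best known of these repressors, stood at 0.12 ± 0.16 and 0.36 ± 0.11 and were not called.

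Other p53 targets lay on both sides of 0. Of 20 detected, 3 were called higher and 1 lower (limma; 4 and 3 at an unadjusted p under 0.05), 8 were higher in sign, and the median was -0.02. The called genes were Pmaip1, a promoter of apoptosis (0.83 ± 0.16), Gtse1, a regulator of p53 made in dividing cells (0.75 ± 0.15), Sfn, which was below detection on every control array, passed the filter through the Dicer cKO arrays alone and was at least 1.40-fold higher, and the damage response gene Gadd45a (-0.64 ± 0.12). With detection required on all arrays the counts were 2 and 1. Without Dicer cKO pool 10 they were 0 and 0, with pool 12 left out they were 1 and 1, and without control pool 9 or 11 none was lower. Of the 12 genes of p53 and its regulators 0 were called by limma (1 higher and 0 lower at an unadjusted p under 0.05). The largest moderated t of this list were those of the kinase gene Atr (0.39 ± 0.14) and the acetyltransferase gene Ep300 (-0.25 ± 0.13). The p53 gene itself, Trp53, differed by 0.15 ± 0.09, and Mdm2, which is both a p53 target and its main antagonist, by -0.0031 ± 0.11. Of 19 other transcriptional regulators of Cdkn1a or Cdkn1b, among them the histone deacetylase genes Hdac1 and Hdac2, the transcription factor gene Klf5 was called lower (-0.77 ± 0.10) and 0 higher (limma; 1 higher and 5 lower at an unadjusted p under 0.05).

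Of 9 genes of microRNA processing, Ago2, the slicing Argonaute (0.65 ± 0.09), and Tarbp2, a partner of Dicer (0.48 ± 0.11), were called higher and Dicer1 lower. With either Dicer cKO pool left out 0 were called higher, and with any 1 control pool left out 1 was. Dicer1 was called with Dicer cKO pool 12 left out, but with no other pool left out.

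**Figure D5:**
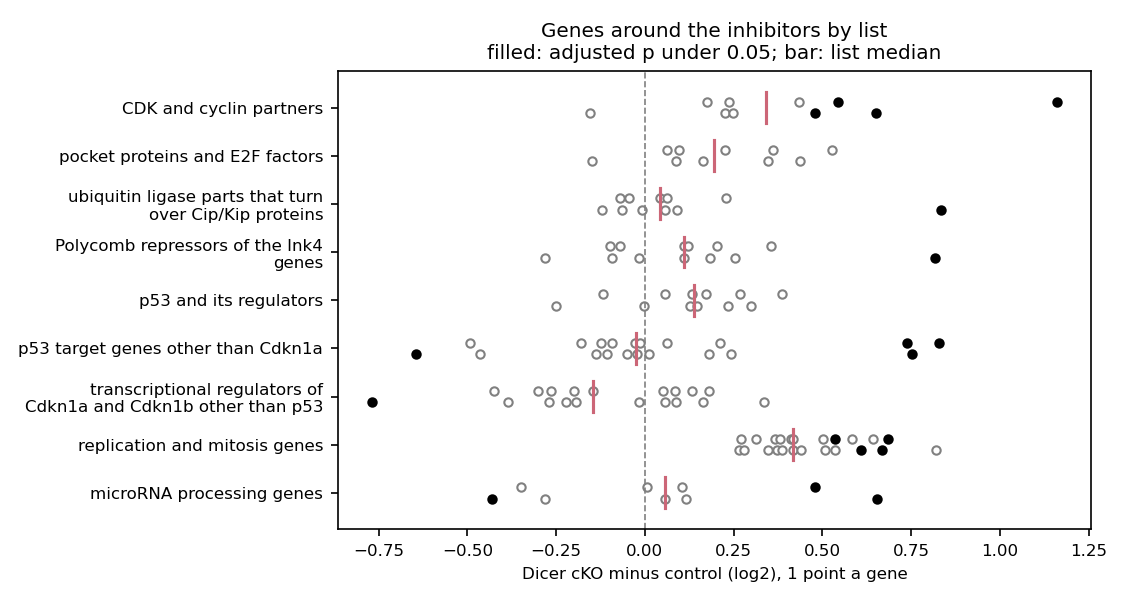
Difference between Dicer cKO and control pools in log2 units (horizontal axis) for the detected genes of each list (vertical axis), 1 point a gene, with filled points for an adjusted p under 0.05 and a red bar at the list median. The replication and mitosis genes all lie above 0, with a median of 0.42, while the p53 targets other than Cdkn1a lie on both sides, with a median of -0.02.

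Markers of other cell types were read beside these results. Over the array 2.68% of genes were called higher and 3.88% lower. At an unadjusted limma p under 0.05 these shares were 10.3% and 10.4%. At that level the epithelial markers had 2 higher and 5 lower, the stromal 0 and 4 and the adipocyte 0 and 3. The smooth muscle markers had 0 and 0, and the endothelial 0 and 1. Of 7 epithelial markers, Krt7 (0.57 ± 0.14) and Cldn4 (0.55 ± 0.14) were called higher and Cldn3 (-1.48 ± 0.17), Krt18 (-0.86 ± 0.09), Krt19 (-0.54 ± 0.10) and Krt8 (-0.37 ± 0.09) lower. With control pool 9 or 11 or either Dicer cKO pool left out 0 were called higher, and with either Dicer cKO pool left out 2 were called lower. With detection required on all arrays 1 was called higher and 4 lower. The summed signal of the 7, which the bright ones weigh most, was lower in the Dicer cKO pools (7316 to 7388 against 9293 to 12359 in controls), as was that of 8 stromal markers (33581 to 37338 against 39530 to 41251) and of 5 adipocyte markers (786 to 1635 against 2077 to 3806). The 8 smooth muscle markers stood at 49033 to 50404 against 46602 to 48893, and the 8 endothelial markers overlapped between groups. Of the 8 stromal markers 3 were called lower and 0 higher, Vim (-0.82 ± 0.12), Thy1 (-0.79 ± 0.11) and Tcf21 (-0.33 ± 0.08). The other 5 were not called, among them Col1a1 (0.09 ± 0.07). Of the 5 adipocyte markers 3 were called lower and 0 higher, Adipoq (-1.42 ± 0.29), Cfd (-1.38 ± 0.33) and Cidec (-1.06 ± 0.27). Without the intensity trend 2 stromal and 0 adipocyte markers were called lower, and with a robust spread 3 and 0. Without control pool 7 the counts were 2 and 1, and without control pool 9 or 11 they were 2 and 2. For each of these called markers Dicer cKO pool 12 lay nearer to the control pools than pool 10 did. Cfd read 8.99 in pool 10 and 10.26 in pool 12, against 11.47, 11.04 and 10.50 in control pools 7, 9 and 11. The part of these cell types in any difference above was not tested.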

How the data were processed

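Uterine RNA of 3 control and 2 Dicer cKO pools was read on Illumina bead arrays. Per the labels these were human WG-6 v3 chips, but the gene names in the files are those of mouse genes. The authors deposited 1 mean bead intensity per probe, per the file headers, on a linear scale, with no background subtraction or normalization visible in the values. The deposited detection score is a fraction from 0 to 1, and the detection p was taken as 1 minus that score. BeadStudio is named per the submitters' processing notes, with no version.

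Background was corrected and arrays quantile-normalized with neqc (offset 16) in limma 3.58.1 (R 4.3.3). Probes were kept if 2 or more of the 5 arrays gave a detection p under 0.05. Groups were compared probe by probe with lmFit and eBayes with an intensity trend, 2-sided, and adjusted by Benjamini-Hochberg over all kept probes. Intervals are 95% intervals of that fit. The planned fit of ratios of Cdkn1a to every kept probe called 22831 of 22844 ratios (99.9%). All its ratios hold the same Cdkn1a probe, so they share both its rise and its error, and whether the error adds calls was not tested. It was replaced, after the data were seen, by a fit of the member ratios, divided by the square root of 2, together with all probes. Array names were brought to RefSeq symbols (GRCm38.p6, used for names and neighbours), 22864 directly and 11917 through synonyms, with 10500 names kept. A gene in a list is its brightest kept probe.

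The members and lists were chosen with earlier results of these data known. The rule named every member probe, up to 4 called genes of a list with the largest differences (or the 2 with the largest moderated t where none was called), the 5 probes nearest to each called member, Dicer1 and Pgr. Pgr differed by -0.77 ± 0.14 (limma adjusted p = 0.0079). Genes named beside these were chosen after their values were seen. The alternatives were the offset, the background correction, the normalization, the detection filter, the trend, a robust spread, array weights, 1 probe a gene and each pool left out. The deposited normalized table of the series was not used here, since its probe identifiers are not those of the array files. No slide or scan is named in the labels or files. Arrays of a group differed by more than bead error: the median over probes of the squared difference, divided by the variance from the beads, was at least 1.38, where bead error alone gives 0.455. It was taken on intensities before normalization, so differences of scale between arrays add to it. A pair across groups, control pool 9 and Dicer cKO pool 12, stood lower, at 1.23. The measure does not tell repeat arrays of 1 library from separate ones.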

Additional observations from a re-analysis of the deposited data

How the results depend on the processing

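The call of the brightest Cdkn1a probe held in all 14 alternatives, with differences from 1.97 to 2.28, and from 2.12 to 2.28 with a pool left out. The call of Cdkn1a probe 7040491 also held in every alternative that tested it. Probe 2070377 had entered the test through the Dicer cKO arrays, where it is high, and dropped out with detection required on all arrays. That its call held in the other alternatives is no check on that selection. Of the ratios of Cdkn1a to its relatives, 5 held in all 13 alternatives, and that to Cdkn2b ran from 1.05 to 1.65 with a pool left out. With a pool left out, between 3 and 4 member probes, between 356 and 1235 probes of the array and between 4 and 23 list genes were called, against 4, 1340 and 18. Without Dicer cKO pool 12 the 4 called member probes included that of Cdkn1c and not that of Cdkn2b. With 1 probe a gene, 2 members were called, since 3 of the called probes report Cdkn1a, and without the intensity trend 11 list genes were called. The list genes counted here, 18 in the main fit, leave out the cell type markers. Signs turned for probes that were never called: with a pool left out Cdkn1b ran from -0.0011 (control pool 7) to 0.25, the brighter Cdkn2c probe from -0.041 (Dicer cKO pool 10) to 0.19 and Cdkn2d from -0.25 to 0.17 (Dicer cKO pool 12). With 1 Dicer cKO pool left out, the lone pool is assumed to vary like the controls. The counts of every list, those of cell type markers included, were recomputed 416 times, and 52 moved by over 1.5 times. The authors' normalized values could not be run, since their rows are not matched to probes. No paired analysis was possible because the pools of the groups share no number. Dim probes, such as those of Cdkn1b and Cdkn2a below detection, limit what can be read.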

Other observations

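A further probe, listed on the array under a name for the p16 product of Cdkn2a (CDKN2A_P16_INK4A_136), is outside the members by the rule. It was below detection on all 5 arrays, with intensities of 59.4, 54.1 and 55.8 in control pools 7, 9 and 11 and of 52.7 and 52.1 in Dicer cKO pools 10 and 12.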
